A study of Mus musculus with 10 samples.

Results

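Histone profiles of cultured mouse retina were read at 7 genes that act after or beside the master photoreceptor factors, Neurod1, Mef2d, Esrrb, Prdm1, Samd7, Thrb and Rxrg. All regions assigned to these gene symbols were taken, at promoters and elsewhere, which gave 211 of 108253 peaks and 7 of 25400 gene symbols. Retinas of wild-type C57BL/6J mice at postnatal day 28 were explanted without the sclera and the pigment epithelium and kept for 48 hours in medium with 5 mM or 25 mM glucose. CUT&Tag was then run on 500000 dissociated cells per assay, in which an antibody tethers a transposase to a modified histone so that the sequenced fragments mark its place on the genome. Lactylated histone H3 lysine 18 (H3K18La) was profiled in 3 libraries at each glucose level and acetylated lysine 27 (H3K27Ac) in 2, so that the groups differed in glucose and antibody alone, and the labels place all 10 libraries in batch 1. Nothing in the labels says how many animals stand behind a library, so the p-values measure the spread between libraries, which may be technical. Whole retina was profiled, and fewer cells of a type cannot be told apart from less mark per cell.

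Photoreceptor identity is set by a small group of transcription factors and then refined by others that steer rods, cones and bipolar cells apart and keep the mature genes on. Neurod1 is a basic helix-loop-helix factor needed for cone opsin patterning and photoreceptor survival. Mef2d is a MADS-box factor that works with CRX on photoreceptor genes, and Esrrb is an orphan nuclear receptor of rods. Prdm1, also known as Blimp1, is a zinc finger repressor that stabilises the photoreceptor fate over the bipolar fate, and Samd7 is a polycomb-associated repressor that keeps non-rod genes silent. Thrb, a thyroid hormone receptor whose TRβ2 isoform comes from an internal start, and Rxrg, a retinoid X receptor, are nuclear receptors of cones and control opsin choice. Acetylation of H3K27 marks active promoters and enhancers, and lactylation of H3K18 uses lactyl groups derived from lactate, the product of glycolysis.

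The peaks were spread unevenly over the members. Thrb, which spans 377.83 kb on chromosome 14, held 95 peaks and Esrrb, which spans 160.51 kb on chromosome 12, held 57. Prdm1 on chromosome 10 held 21 peaks, Rxrg on chromosome 1 held 16, Mef2d on chromosome 3 held 10, Samd7 on chromosome 3 held 9 and Neurod1 on chromosome 2 held 3. Of the 211 peaks, 118 were annotated as intronic, 69 as distal intergenic, 13 as promoter, 7 as exonic, 3 as 3′ UTR and 1 as 5′ UTR. The promoter share was 6.16%, against 15.8% over all peaks of the series. Each peak belongs to the gene with the nearest start, so a distant peak may serve another gene, and peaks of a gene are not replicates of each other.

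The reference sequence at 7 of the regions on which the results turn is shown here, read from GRCm38.p6 on the strand given and written from 5′ to 3′. The promoter stretches are 250 bases just upstream of the annotated exons at a RefSeq start, the internal one in Rxrg, while the others are the central 300 bases of a peak. None of the 7 stretches overlaps an exon of GENCODE M21. Capitals mark matches on either strand to TAATCC (the homeodomain site of CRX), CAGATG (an E-box of NEUROD proteins), AAGGTCA (the extended site of ESRR proteins), GGGCGG (the GC box of SP and KLF proteins), CTANNNNTAG (the MEF2 site) or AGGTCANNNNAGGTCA (the direct repeat of thyroid hormone receptor and RXR, which can overlap AAGGTCA). Neurod1, Samd7, Mef2d and Esrrb are shown for the regions with the strongest or nearly strongest signal of each gene, Thrb for its distal peak with the highest mean over the 10 libraries and for the member peak with the largest H3K27Ac rise, and Rxrg for a start site whose signal stayed low.
Neurod1 promoter, chr2:79456786-79457035, minus strand: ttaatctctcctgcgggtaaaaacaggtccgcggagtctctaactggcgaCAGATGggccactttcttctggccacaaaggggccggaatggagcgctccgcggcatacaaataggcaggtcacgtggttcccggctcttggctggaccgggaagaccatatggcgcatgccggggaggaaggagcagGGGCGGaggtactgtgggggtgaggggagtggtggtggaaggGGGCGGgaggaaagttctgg
Samd7 promoter, chr3:30746043-30746292, plus strand: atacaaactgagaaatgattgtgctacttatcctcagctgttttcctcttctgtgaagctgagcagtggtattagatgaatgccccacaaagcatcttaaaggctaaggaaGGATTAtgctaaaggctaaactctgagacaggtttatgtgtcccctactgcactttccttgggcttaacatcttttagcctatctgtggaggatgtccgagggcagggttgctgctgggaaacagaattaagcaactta
Mef2d first intron, chr3:88147911-88148210, plus strand: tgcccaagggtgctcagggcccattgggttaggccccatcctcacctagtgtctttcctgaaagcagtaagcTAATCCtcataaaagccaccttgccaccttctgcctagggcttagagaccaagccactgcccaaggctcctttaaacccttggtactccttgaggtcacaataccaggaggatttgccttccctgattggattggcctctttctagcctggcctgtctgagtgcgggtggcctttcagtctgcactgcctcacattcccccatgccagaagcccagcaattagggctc
Esrrb intron, chr12:86507671-86507970, plus strand: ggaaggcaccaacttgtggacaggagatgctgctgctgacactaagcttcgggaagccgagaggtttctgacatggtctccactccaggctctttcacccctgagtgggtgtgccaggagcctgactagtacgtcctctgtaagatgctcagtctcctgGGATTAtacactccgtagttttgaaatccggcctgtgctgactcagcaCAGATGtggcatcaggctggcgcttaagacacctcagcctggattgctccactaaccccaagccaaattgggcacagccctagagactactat
Thrb distal peak, chr14:17603590-17603889, plus strand: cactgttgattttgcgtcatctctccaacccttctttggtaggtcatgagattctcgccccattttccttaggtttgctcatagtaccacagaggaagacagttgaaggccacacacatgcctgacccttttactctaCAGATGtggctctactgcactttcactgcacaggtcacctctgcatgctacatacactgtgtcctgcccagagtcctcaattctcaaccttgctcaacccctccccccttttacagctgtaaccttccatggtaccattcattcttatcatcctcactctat
Thrb distal peak, chr14:17606101-17606400, plus strand: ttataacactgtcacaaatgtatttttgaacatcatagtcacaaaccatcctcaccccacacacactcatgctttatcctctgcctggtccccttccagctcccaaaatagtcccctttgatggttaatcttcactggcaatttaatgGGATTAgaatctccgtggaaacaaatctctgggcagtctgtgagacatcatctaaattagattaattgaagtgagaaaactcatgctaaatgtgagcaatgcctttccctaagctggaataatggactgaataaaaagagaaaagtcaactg
Rxrg internal promoter, chr1:167618015-167618264, plus strand: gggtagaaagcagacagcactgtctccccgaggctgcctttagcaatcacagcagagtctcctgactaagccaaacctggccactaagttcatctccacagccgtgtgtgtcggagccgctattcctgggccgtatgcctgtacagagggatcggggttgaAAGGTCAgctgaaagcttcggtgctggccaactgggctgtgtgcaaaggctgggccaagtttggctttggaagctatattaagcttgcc

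The same letters were counted in the central 300 bases of every peak, and shares among the members lay near those of all peaks. TAATCC was found in 1 of 13 member promoter peaks (7.69%), against 6.95% of all 17144 promoter peaks, and in 25 of 198 other member peaks (12.6%), against 12.3% of all 91109 other peaks. CAGATG stood in 3 of 13 member promoters (23.1%) and in 15.7% of all promoters, and in 31.3% of the other member peaks against 26.99% of all others. AAGGTCA was present in 1 member promoter, that of Rxrg at its internal start, and in 4.02% of all promoters, and it stood in 6.57% of other member peaks against 6.60%. GGGCGG was found in 5 member promoters (38.5%), against 44.8% of all promoters. CTANNNNTAG was found in 0 of 13 member promoters and in 2.92% of all promoters, and in 9 other member peaks (4.55%) against 4.77%. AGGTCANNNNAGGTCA was found in none of the member peaks and in 3 of all promoter peaks. A match describes the letters of a window and is not evidence of binding. The median GC content was 59.3% in the member promoter peaks and 60.3% in all promoter peaks.

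Values are RPKM, reads scaled to the length of the peak and to the library's denominator, so that levels compare between genes per length. The denominators of the 10 libraries were 1358008 to 7424470 reads. For H3K18La the peaks took 11.8% to 12.01% of the denominator at 5 mM and 31.2% to 35.0% at 25 mM, and for H3K27Ac they took 21.1% and 31.5%, then 69.5% and 56.5%. This share moved with glucose in both marks, so a rise in RPKM at a member includes the rise of the whole peak set, and its part in each result is shown by 2 other scalings. The members' 211 peaks together held 505 to 19933 reads in a library, and 46 of them held 0 reads in the shallowest H3K18La library, where 0 reads allow up to 3.

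The first question was whether both marks over the whole gene, all its peaks summed per length, changed with glucose. In both marks 6 of the 7 loci rose at 25 mM, and Rxrg did not pass the test. The H3K27Ac count fell to 0 when loci with few reads were kept in the fit (6 at an unadjusted p under 0.05, limma). With the replicate number as a block 1 H3K27Ac locus of the members passed, beside 5.51% of all loci (4 members at an unadjusted p under 0.05, limma). The background was high, because 84.2% of the 9568 loci tested rose for H3K18La and 62.1% of the 17863 tested rose for H3K27Ac (limma on log2(RPKM + 0.5), Benjamini-Hochberg adjusted p under 0.05). The members' median log2 fold change was 1.74 for H3K18La and 1.64 for H3K27Ac, beside medians of 1.05 and 0.98 over all loci tested. Fold changes on this scale understate the change of weak loci.

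Neurod1 had the largest rise of the 7 loci in both marks. Its H3K18La signal was 2.06, 1.42 and 1.28 RPKM in the libraries at 5 mM and 19.7, 9.50 and 8.64 at 25 mM. Its H3K27Ac signal was 8.74 and 13.4 RPKM at 5 mM and 69.1 and 34.9 at 25 mM. The groups did not overlap in either mark, and replicate 1 at 25 mM was the highest library of each. The log2 fold change was 2.57 (SE 0.30, adjusted p = 0.000173, limma) for H3K18La and 2.13 (SE 0.52, adjusted p = 0.000741, limma) for H3K27Ac. Only 10, 17 and 4 reads stood behind the H3K18La values at 5 mM. Of all loci tested, 99.8% had a smaller H3K18La change and 98.9% a smaller H3K27Ac change.

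Mef2d behaved like Neurod1 in its levels, with H3K27Ac far above H3K18La in RPKM. Values of the 2 antibodies are not on one scale and do not give relative amounts of the marks. H3K18La was 1.47, 2.06 and 1.83 RPKM at 5 mM and 14.0, 6.67 and 5.69 at 25 mM. H3K27Ac was 8.90 and 14.4 RPKM at 5 mM and 50.8 and 30.4 at 25 mM. Groups were separate in both marks, and the first library at 25 mM was again the highest. The log2 fold changes were 1.92 (SE 0.30, adjusted p = 0.000669, limma) and 1.75 (SE 0.51, adjusted p = 0.00395, limma).

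Esrrb, the rod nuclear receptor, showed nearly the same fold in both marks from lower H3K27Ac levels. H3K18La was 1.81, 1.71 and 2.07 RPKM at 5 mM and 10.1, 7.66 and 7.15 at 25 mM. H3K27Ac was 3.17 and 5.26 RPKM at 5 mM and 20.0 and 13.9 at 25 mM. Neither mark overlapped between glucose levels. The log2 fold changes were 1.89 (SE 0.17, adjusted p = 7.08e-05, limma) and 1.91 (SE 0.47, adjusted p = 0.00093, limma).

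The repressors Prdm1 and Samd7 rose as well. Prdm1 had H3K18La of 2.16, 1.72 and 1.199 RPKM at 5 mM and 7.23, 6.52 and 6.34 at 25 mM, and H3K27Ac of 2.90 and 4.33 RPKM rising to 11.7 and 9.48. Samd7 had H3K18La of 1.39, 1.10 and 1.57 RPKM at 5 mM and 6.29, 3.89 and 3.59 at 25 mM, and H3K27Ac of 1.26 and 1.95 RPKM rising to 7.80 and 4.51. No library at 5 mM reached the lowest library at 25 mM for either gene. The log2 fold changes of Prdm1 were 1.74 (SE 0.19) and 1.45 (SE 0.44), and those of Samd7 were 1.43 (SE 0.22) and 1.64 (SE 0.37). Adjusted p-values were 0.000119 and 0.00522 for Prdm1 and 0.00065 and 0.000284 for Samd7 (limma, H3K18La first).

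The cone receptors Thrb and Rxrg had the smallest changes. Thrb had H3K18La of 1.89, 1.87 and 2.02 RPKM at 5 mM and 5.31, 5.41 and 5.98 at 25 mM, and H3K27Ac of 2.44 and 3.93 RPKM at 5 mM and 6.04 and 6.26 at 25 mM. Both marks were separate between the groups. The log2 fold change of Thrb was 1.32 (SE 0.13, adjusted p = 9.46e-05, limma) for H3K18La and 0.88 (SE 0.41, adjusted p = 0.0483, limma) for H3K27Ac, the latter below the median of 0.98 over all loci. Rxrg had H3K18La of 0.866, 0.910 and 0.785 RPKM at 5 mM and 1.01, 1.10 and 1.15 at 25 mM, and H3K27Ac of 0.757 and 0.956 RPKM at 5 mM and 0.910 and 0.871 at 25 mM. The H3K18La groups of Rxrg lay close together without overlapping, and its H3K27Ac groups overlapped. Its log2 fold change was 0.23 for H3K18La (95% interval -0.12 to 0.58, adjusted p = 0.176, limma) and 0.04 for H3K27Ac (95% interval -0.43 to 0.51, adjusted p = 0.885, limma). These intervals lie below the lower bounds of the other 6 loci in H3K18La, the nearest being that of Samd7 at 0.91, whereas in H3K27Ac the interval of Thrb, 0.09 to 1.67, overlaps that of Rxrg. Only 3.66% of the loci tested had a smaller H3K18La change than Rxrg, and 5.73% a smaller H3K27Ac change.

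**Figure D1:**
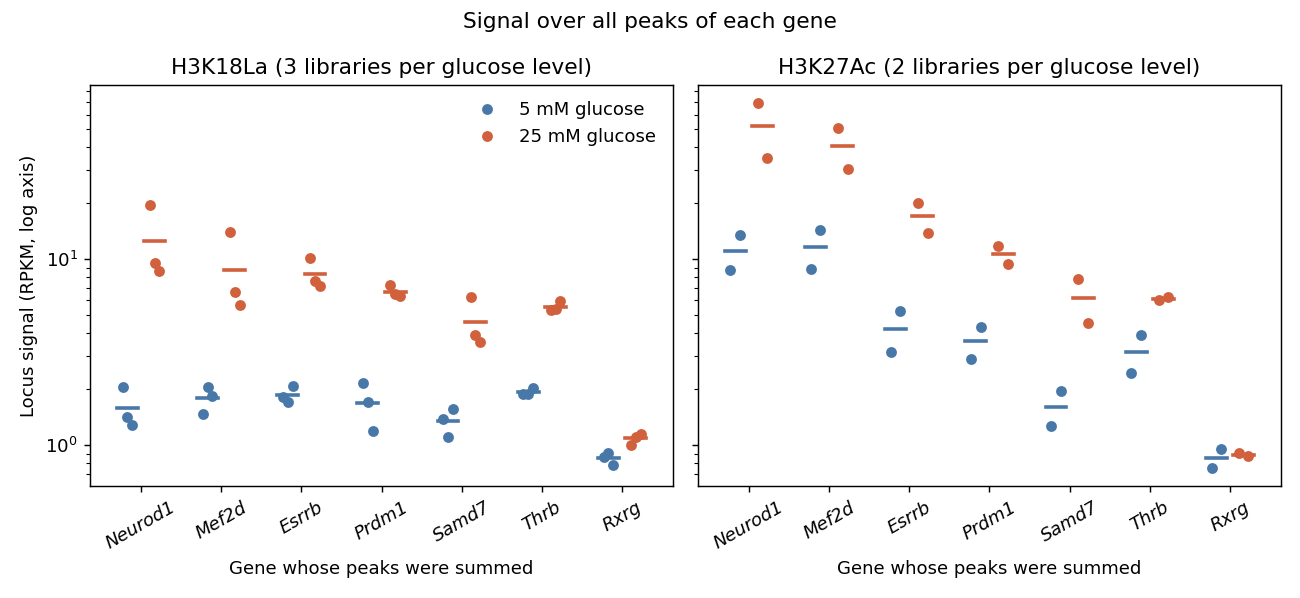
Signal summed over all peaks of each gene, in RPKM on a log axis, for each H3K18La and H3K27Ac library at 5 mM (blue) and 25 mM (orange) glucose; points are libraries and lines are group means. The 25 mM points lie above the 5 mM points for each gene except Rxrg in H3K27Ac, and Rxrg stays near 1 RPKM throughout.

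A single locus tested alone by exact permutation cannot pass a threshold of 0.05 here. The exact two-sided p was 0.1 for each of the 7 loci in H3K18La, the smallest that 3 against 3 libraries allow, and 0.3333 for 6 loci in H3K27Ac, the smallest that 2 against 2 allow. The limma p-values borrow the spread of all other loci. In the main H3K27Ac fits of loci and peaks, limma p-values and SEs used this pooled spread alone, not that of the locus or peak itself. For H3K27Ac they also rested on single libraries: without replicate 1 at 25 mM 0 of the 7 loci passed (0.619% of all loci), and without replicate 2 at 25 mM 3 passed (12.7% of all). Without replicate 1 at 5 mM 4 passed (25.7% of all), and Mef2d and Thrb each kept their H3K27Ac call in 1 of the 4 fits that left out a library (adjusted p up to 0.29 and 0.296, limma). In H3K18La 6 loci passed whichever library was left out.

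Scaling decided how much of the rise belonged to the members. When each library was centred on its own median locus, the H3K18La changes of Neurod1 (1.55), Esrrb (0.87) and Prdm1 (0.72) still passed as higher, and Rxrg passed as lower (-0.79, adjusted p = 0.0177, limma). In H3K27Ac Neurod1 (1.11) and Esrrb (0.89) passed as higher and Rxrg as lower (-0.98, adjusted p = 0.0321, limma). Over all loci on that scale 1176 passed as higher and 612 as lower in H3K18La (18.7% in all), and 1253 and 1818 in H3K27Ac (17.2%), so that lower calls were common. Mef2d then missed the threshold in both marks at 0.90 (adjusted p = 0.0557, limma) and 0.73 (adjusted p = 0.0523, limma), and Thrb stood at 0.30 and -0.14. When libraries were scaled to the reads inside peaks, 0 of the 7 loci passed in either mark, while 5 of 7 had an unadjusted p under 0.05 in each mark and the adjusted p of Neurod1 and of Rxrg in H3K18La was 0.0853 (limma). Under that scaling 0 of all loci passed too, and the median over all loci was -0.07 for H3K18La and -0.13 for H3K27Ac. Rxrg therefore stood below the other members under each of these scalings, but whether its own signal was flat or lower depends on the scaling.

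The order of the levels per length differed between marks and glucose levels. In H3K18La at 5 mM the means ran from 1.93 RPKM in Thrb through Esrrb, Mef2d, Prdm1 and Neurod1 to 1.35 in Samd7, and the libraries of each neighbouring pair overlapped. Rxrg, at 0.854 ± 0.0638 (SD, n = 3), was the only one set apart. At 25 mM the order began with Neurod1 at 12.6 ± 6.13 (SD, n = 3), Mef2d at 8.77 ± 4.52 and Esrrb at 8.32 ± 1.60, whose ranges overlapped although Neurod1 exceeded Mef2d in 3 of 3 libraries, and ended with Rxrg at 1.09 ± 0.0753. Prdm1 at 6.70 was separate from Thrb at 5.57, and Thrb overlapped Samd7 at 4.59.

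In H3K27Ac the order was steeper. At 5 mM Mef2d (11.7 ± 3.90, SD, n = 2) and Neurod1 (11.1 ± 3.31) overlapped in range, with Mef2d higher in 2 of 2 libraries, and stood apart from Esrrb at 4.21, which overlapped Prdm1 at 3.61 and in turn Thrb at 3.19. Samd7 at 1.60 and Rxrg at 0.856 were each separate from the gene above. At 25 mM Neurod1 (52.0 ± 24.1) and Mef2d (40.6 ± 14.4) overlapped in range, with Neurod1 higher in 2 of 2 libraries, Esrrb (16.97) and Prdm1 (10.6) were separate, and Samd7 and Thrb, at 6.16 and 6.15, overlapped. Rxrg closed the order at 0.891 ± 0.0273 (SD, n = 2). Among all loci tested, Neurod1 and Mef2d exceeded 98.4% and 98.8% at 5 mM in H3K27Ac, and Rxrg exceeded 11.5%.

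The next question was whether the change with glucose differed between the marks. For the loci the difference of the log2 fold changes, H3K18La minus H3K27Ac, ran from -0.21 in Samd7 to 0.44 in Neurod1. For Thrb, whose H3K18La ratio of 2.89 compared with 1.93 in H3K27Ac, it was 0.44 (95% interval -0.33 to 1.21, adjusted p = 0.74, limma). For Neurod1 the interval was -0.80 to 1.68 and for Esrrb -0.90 to 0.87. These intervals take all 10 libraries as independent, though nothing in the labels says whether libraries of the 2 marks share retinas. The count was 0 of 7 members, beside 0.00627% of the 15954 loci tested. Across the 211 peaks 0 of 191 tested passed this interaction, where 0.0% of 72467 peaks did. At an unadjusted p under 0.05 (limma) there were 8 member peaks, or 4.19%, beside 5.04% of all peaks tested. On simulated data this peak test called none of the changes put in, so its count of 0 says little. The median interaction was 0.40 over the member peaks and 0.24 over all peaks tested.

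Single peaks were examined next. Of the 211 member peaks, 185 reached a mean of 1 RPKM in H3K18La and were tested, and 114 of these rose and 0 fell, which is 61.6% beside 37.3% of all 65614 peaks tested. In H3K27Ac 186 were tested, and 90 rose and 0 fell, 48.4% beside 33.9% of 72442. That count fell to 0, as did that over all peaks, when peaks below the minimum were kept in the fit (96 members at an unadjusted p under 0.05, limma). With the replicate number as a block 42 H3K27Ac member peaks passed, beside 10.9% of all peaks (91 members at an unadjusted p under 0.05, limma). The peaks below the minimum were 26 in H3K18La, 14 of them in Thrb and 9 in Rxrg, and 25 in H3K27Ac, 10 of them in Rxrg. Over those tested, the median log2 fold change was 1.52 in H3K18La and 1.06 in H3K27Ac, beside 1.10 and 0.84 over all peaks. With each library centred on its median peak, 12 and 18 member peaks passed (1.59% and 1.58% of all), and with scaling to the reads in peaks 0 passed in either mark (43 and 61 at an unadjusted p under 0.05, limma).

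The share of peaks that rose differed from gene to gene in both marks. In H3K18La 3 of 3 tested peaks rose in Neurod1, 6 of 7 in Mef2d, 47 of 57 in Esrrb, 15 of 21 in Prdm1, 4 of 9 in Samd7, 39 of 81 in Thrb and 0 of 7 in Rxrg. In H3K27Ac the counts were 3 of 3, 7 of 10, 38 of 52, 16 of 20, 7 of 8, 19 of 87 and 0 of 6. Samd7 and Prdm1 had larger shares in H3K27Ac than in H3K18La, and Thrb had the widest gap the other way, though none of these gaps was tested. Counted without a model over all 211 peaks, each 25 mM library exceeded each 5 mM library at 135 peaks in H3K18La (64.0%, beside 36.6% of all 108253 peaks) and at 149 in H3K27Ac (70.6%, beside 53.0%). For Rxrg these counts were 2 and 5 of its 16 peaks. Each 25 mM library lay below each 5 mM library at 1 member peak in H3K18La and 7 in H3K27Ac, beside 889 and 6891 of all peaks. In H3K27Ac 2 of the 7 were Rxrg peaks. The H3K27Ac count of calls rested on both 25 mM libraries, and it was 0 without replicate 1 (55 at an unadjusted p under 0.05, limma), where 0.0142% of all peaks passed, and 5 without replicate 2, where 1.38% of all passed.

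**Figure D2:**
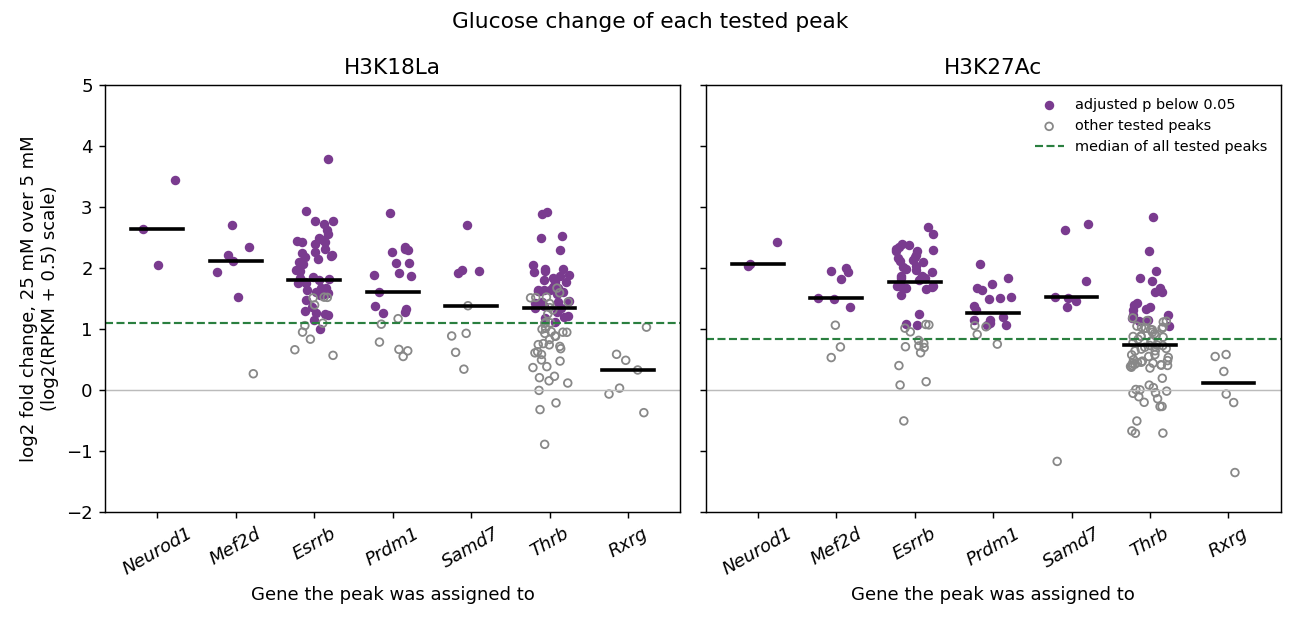
Log2 fold change, 25 mM over 5 mM glucose, of each tested peak assigned to the 7 genes, for H3K18La and H3K27Ac; filled points had an adjusted p below 0.05, black bars are medians per gene and the dashed line is the median of all tested peaks (1.10 and 0.84). Most Esrrb peaks lie above the dashed line, Thrb peaks straddle it, and none of the Rxrg peaks is filled.

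The promoter peaks were then taken one by one. Of 13 promoter peaks, 7 rose in H3K18La and the same 7 rose in H3K27Ac, 1 each in Neurod1, Mef2d, Samd7, Esrrb and Thrb and both of Prdm1. The other 6 were the 3 of Rxrg, the first start of Esrrb and both internal starts of Thrb. Over all promoter peaks tested, 33.3% rose in H3K18La and 57.0% in H3K27Ac, so the members' H3K27Ac count of 7 among 12 tested lay near that share.

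At the Neurod1 promoter (chr2:79456460-79457499, the region whose upstream part is printed above) H3K18La was 2.28, 1.30 and 1.42 RPKM at 5 mM and 22.5, 11.1 and 8.10 at 25 mM. H3K27Ac there was 8.89 and 14.6 RPKM at 5 mM and 71.4 and 32.2 at 25 mM. The groups were separate in both marks, with log2 fold changes of 2.64 (SE 0.39) and 2.03 (SE 0.53). At the Mef2d promoter (chr3:88141878-88143596) the log2 fold changes were 2.12 (SE 0.46) and 1.82 (SE 0.53), and the peak in its first intron (chr3:88147494-88148629, printed above) was stronger, with H3K18La of 1.67, 2.38 and 1.94 RPKM rising to 29.6, 12.6 and 10.1. H3K27Ac in that intron was 12.01 and 25.5 RPKM at 5 mM and 88.1 and 57.9 at 25 mM, the highest 25 mM mean of any member peak. The H3K27Ac calls of the strongest promoter peaks of Neurod1, Mef2d, Esrrb, Prdm1 and Thrb held in 2 of the 4 fits that left out a library, and were lost without either replicate at 25 mM. Adjusted p-values of the Neurod1 and Mef2d peaks were 0.000671 to 0.00523 in H3K18La and 0.00287 to 0.00639 in H3K27Ac (limma).

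The Samd7 promoter was among the weaker ones in H3K27Ac at 5 mM. There (chr3:30746024-30746805) H3K18La was 0.606, 1.97 and 2.82 RPKM at 5 mM and 13.7, 4.40 and 6.47 at 25 mM, and H3K27Ac was 0.591 and 3.5 RPKM at 5 mM and 22.4 and 6.72 at 25 mM. Groups were separate, but the 5 mM H3K27Ac libraries differed widely, and their values came from 2 and 17 reads. The log2 fold changes were 1.91 (SE 0.50, adjusted p = 0.0121, limma) and 2.62 (SE 0.44, adjusted p = 3.78e-06, limma). The H3K27Ac SE and p used the pooled spread of all peaks and do not reflect the wide difference between these libraries. Both calls were lost without replicate 1 at 25 mM, with 1.49 (adjusted p = 0.0586, limma) in H3K18La and 1.79 (adjusted p = 0.319, limma) in H3K27Ac, and the H3K27Ac value ran from 1.68 to 3.56 over the left-out libraries. A peak in its first intron, 1.41 kb from the start site (chr3:30747703-30748965), rose by 2.71 (SE 0.41) in H3K18La and 1.78 (SE 0.47) in H3K27Ac.

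Prdm1 carried promoter peaks at 2 annotated starts, the distal one that of a transcript annotated as a retained intron. The peak 0.708 kb upstream of the distal start (chr10:44529209-44530221) had H3K18La of 4.68, 4.57 and 2.91 RPKM at 5 mM and 13.6, 10.4 and 8.65 at 25 mM, and rose by 1.33 (SE 0.29) on the log2 scale, with 1.52 (SE 0.51) in H3K27Ac. The peak at the other start (chr10:44457964-44459178) rose by 1.60 (SE 0.29) and 1.51 (SE 0.51). Both promoters thus moved by similar amounts. Between them lay 13 intronic peaks, of which 9 of 13 rose in H3K18La and 11 of 13 in H3K27Ac, beside 39.7% and 28.4% of all intronic peaks tested. The one with the highest mean over the 10 libraries, though not in H3K27Ac alone, was chr10:44466317-44467037, with a log2 fold change of 2.30 (SE 0.29) in H3K18La and 1.49 (SE 0.48) in H3K27Ac.

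Esrrb has an upstream start and an internal start, and the internal one carried the stronger signal. At the first start (chr12:86360193-86361742) H3K18La was 0.00, 1.12 and 1.90 RPKM at 5 mM and 4.27, 2.06 and 3.26 at 25 mM, with a log2 fold change of 1.52 (SE 0.58, adjusted p = 0.0594, limma), and H3K27Ac, between 0.298 and 1.13 RPKM, was below the minimum for a test. At the internal start (chr12:86421067-86422852) H3K18La was 1.86, 1.08 and 0.825 RPKM at 5 mM and 8.83, 7.99 and 5.66 at 25 mM, and H3K27Ac was 4.79 and 6.31 RPKM at 5 mM and 37.8 and 18.4 at 25 mM. There the log2 fold changes were 2.21 (SE 0.37, adjusted p = 0.00139, limma) and 2.16 (SE 0.50, adjusted p = 0.000828, limma). The difference between the starts was not tested.

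The same division ran along the gene. From the first start to just before the internal promoter peak lay 14 Esrrb peaks, read beside the shares of all intronic peaks that rose (39.7% and 28.4%), with a median of 1.06 RPKM of H3K27Ac at 5 mM and 1.94 at 25 mM, and 9 of 14 tested rose in H3K18La and 3 of 12 in H3K27Ac. From the internal promoter peak to the end of the gene lay 33 peaks with medians of 5.82 and 26.8 RPKM, and 32 of 33 rose in H3K18La and 33 of 33 in H3K27Ac. Beyond the gene's end 10 peaks had medians of 1.12 and 1.82 RPKM, with 6 of 10 and 2 of 7 rising. H3K18La medians at 25 mM were 4.49, 9.98 and 4.24 RPKM in these 3 stretches, a smaller contrast than in H3K27Ac. By the study's description the peak set came from H3K18La peaks, and the share of reads in peaks differed between the marks. The contrasts are therefore not on one scale, and whether the marks differ in their spread was not tested. These stretches were chosen after the values were seen and are a description.

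The Esrrb peak with the highest mean over the 10 libraries lay in an intron 146.09 kb from the first start (chr12:86507208-86508435, its centre printed above). H3K18La there was 2.70, 2.36 and 4.20 RPKM at 5 mM and 31.5, 14.8 and 12.9 at 25 mM, and H3K27Ac was 6.97 and 10.4 RPKM at 5 mM and 82.5 and 38.8 at 25 mM. Every library at 25 mM exceeded every library at 5 mM, and the log2 fold changes were 2.42 (SE 0.35) and 2.67 (SE 0.53). The largest H3K18La rise of any member peak, 3.78 (SE 0.66, adjusted p = 0.00173, limma), was another Esrrb intron peak (chr12:86489714-86490186), where 2 of the 3 libraries at 5 mM held 0 reads. Its fitted fold depends on the pseudocount and is no bound.

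In Thrb the signal was stronger at the first start than at the internal starts, the reverse of Esrrb. At the first start (chr14:17659853-17661415) H3K18La was 4.85, 3.83 and 4.24 RPKM at 5 mM and 20.2, 13.8 and 14.0 at 25 mM, and H3K27Ac was 15.4 and 18.5 RPKM at 5 mM and 56.2 and 33.1 at 25 mM. The groups were separate, with log2 fold changes of 1.76 (SE 0.25, adjusted p = 0.000696, limma) and 1.33 (SE 0.54, adjusted p = 0.0441, limma). At the last internal start (chr14:17981087-17982337) H3K18La was 2.27, 1.54 and 2.35 RPKM at 5 mM and 2.44, 4.13 and 7.01 at 25 mM, and H3K27Ac was 3.33 and 5.41 RPKM at 5 mM and 6.22 and 7.0 at 25 mM. Its log2 fold changes, 0.89 (SE 0.41, adjusted p = 0.109, limma) and 0.58 (SE 0.45, adjusted p = 0.304, limma), did not pass. The other internal start (chr14:17962025-17964197) had 0.94 (SE 0.41) and 0.99 (SE 0.42), with adjusted p-values of 0.0875 and 0.0553 (limma). Whether the starts differed from each other was not tested.

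**Figure D3:**
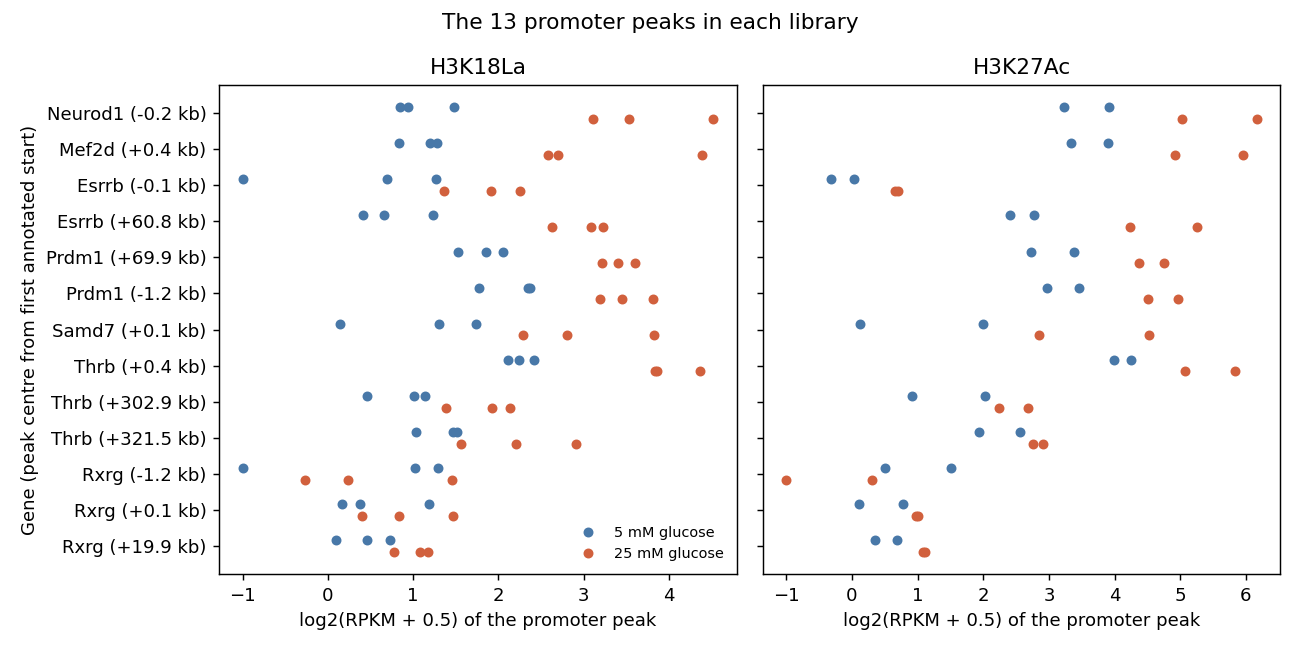
The 13 promoter peaks of the 7 genes, with log2(RPKM + 0.5) of each library at 5 mM (blue) and 25 mM (orange) glucose for H3K18La and H3K27Ac; labels give the distance of the peak centre from the gene's first annotated start. The 3 Rxrg peaks, the first Esrrb start and the internal Thrb starts sit to the left, at low signal, and at 2 of the Rxrg peaks the glucose levels overlap in H3K18La.

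The peaks of Thrb were read in stretches along the gene, beside shares over all peaks tested of 36.2% (H3K18La) and 25.6% (H3K27Ac) for distal intergenic and 39.7% and 28.4% for intronic peaks. Within 100 kb upstream of the first start lay 15 peaks besides the promoter, of which 15 of 15 rose in H3K18La and 8 of 15 in H3K27Ac, with median log2 fold changes of 1.81 and 1.14. Farther upstream, 25 peaks had medians of 1.11 and 0.55, and 10 of 25 tested rose in H3K18La and 3 of 21 in H3K27Ac. Between the first and the internal starts lay 38 peaks, of which 9 of 29 tested rose in H3K18La and 4 of 37 in H3K27Ac. From the internal starts onward lay 16 peaks, and 4 of 11 and 3 of 13 tested rose. These stretches too were chosen after the values were seen.

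The Thrb peak with the highest mean over the 10 libraries lay 56.24 kb upstream of the first start (chr14:17603461-17604019), although in H3K27Ac the first-start promoter was higher at both glucose levels. H3K18La there was 9.33, 5.52 and 15.8 RPKM at 5 mM and 30.9, 31.2 and 28.3 at 25 mM, and H3K27Ac was 10.3 and 15.8 RPKM at 5 mM and 33.3 and 24.8 at 25 mM. Both marks were thus at similar RPKM, which does not compare their amounts, and the groups were separate in each. The log2 fold change was 1.63 (SE 0.30, adjusted p = 0.00202, limma) in H3K18La and 1.14 (SE 0.52, adjusted p = 0.0752, limma) in H3K27Ac. A neighbour 53.77 kb upstream (chr14:17606007-17606496) had the largest H3K27Ac rise of any member peak, from 1.42 and 7.89 RPKM to 35.5 and 21.99. Its H3K27Ac log2 fold change was 2.83 (SE 0.49, adjusted p = 6.92e-06, limma), and H3K18La rose there by 2.48 (SE 0.34). The H3K27Ac values at 5 mM came from 3 and 24 reads. This peak was picked for its large rise, and its H3K27Ac SE and p used the pooled spread of all peaks. The centres of both peaks are printed above.

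**Figure D4:**
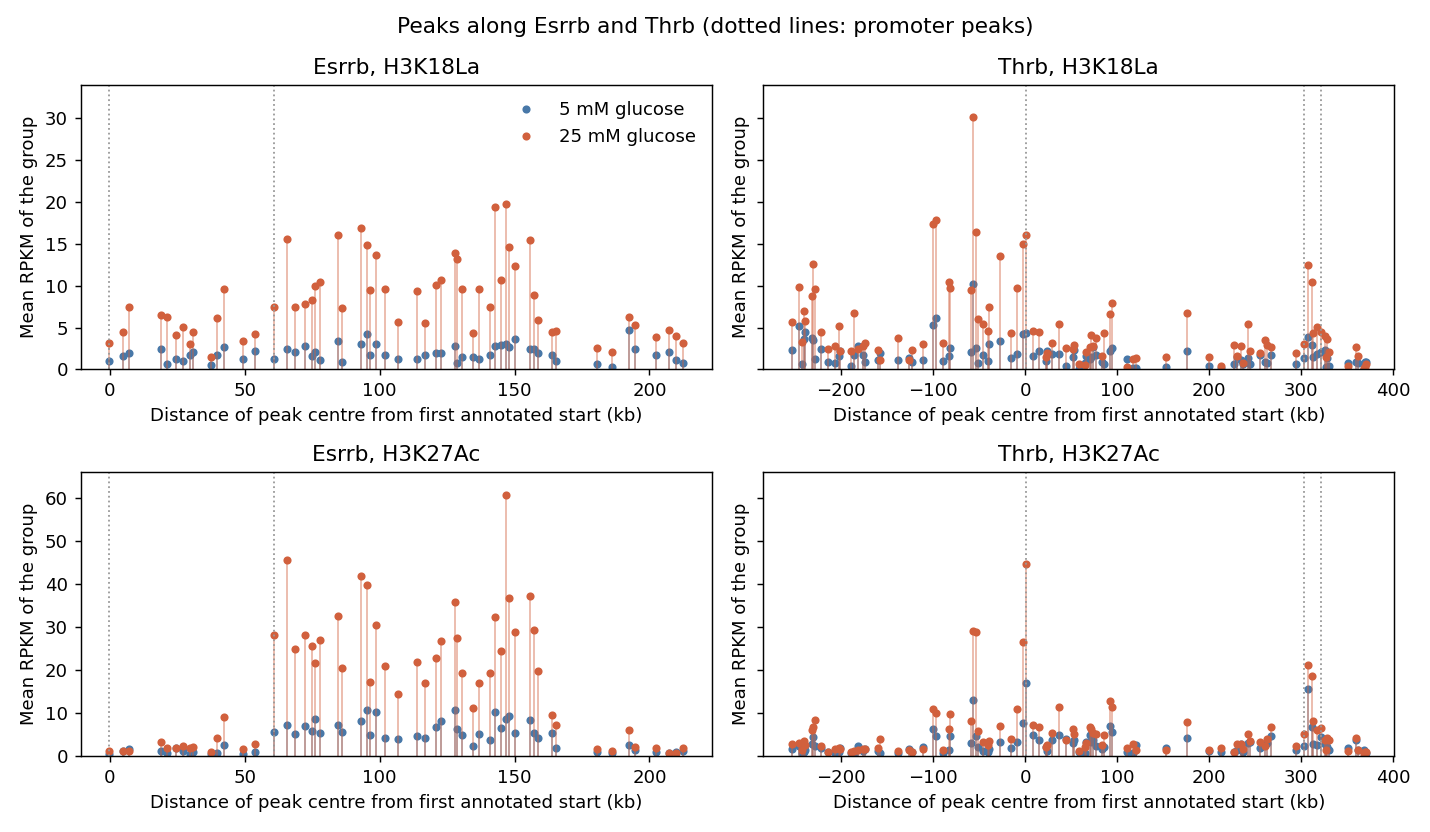
Mean RPKM of each group at every peak of Esrrb and Thrb against the distance of the peak centre from the first annotated start, in kb, for H3K18La (top) and H3K27Ac (bottom) at 5 mM (blue) and 25 mM (orange) glucose; dotted lines mark promoter peaks. Esrrb signal is concentrated downstream of its internal promoter at 60.8 kb, and Thrb signal in the 100 kb upstream, at the first promoter and near the internal promoters.

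Rxrg had no peak that passed in either mark. At the promoter peak centred 1.25 kb upstream of its first start the log2 fold changes were 0.03 in H3K18La and -1.35 in H3K27Ac. That H3K27Ac mean went from 1.63 to 0.369 RPKM (adjusted p = 0.0968, limma). For the promoter peak at the first start of Rxrg the log2 fold changes were 0.33 and 0.55. At its internal promoter (chr1:167617827-167618664, upstream part printed above) H3K18La was 0.566, 1.15 and 0.879 RPKM at 5 mM and 1.21, 1.76 and 1.61 at 25 mM, and H3K27Ac was 1.10 and 0.769 RPKM at 5 mM and 1.66 and 1.61 at 25 mM. The groups did not overlap, yet each value came from 1 to 10 reads, and the log2 fold changes were 0.58 (95% interval -0.48 to 1.65) and 0.58 (95% interval -0.43 to 1.59). In its peak with the highest mean over the 10 libraries, in the first intron (chr1:167599464-167600449), H3K18La was 2.88, 1.17 and 1.49 RPKM at 5 mM and 2.06, 4.24 and 2.05 at 25 mM, and both marks overlapped between the glucose levels. The intervals at the internal promoter include the values of the distal Prdm1 promoter, 1.33 and 1.52.

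Across the 172 member peaks tested in both marks, the log2 fold changes of H3K18La and H3K27Ac had Pearson's r of 0.60 and Spearman's rho of 0.65, beside 0.37 and 0.37 over 57421 peaks tested in both. The points share genes, and peaks are not independent replicates. Both marks passed at 75 of these 172 peaks, beside 12633 of the 57421 over all genes. Passing in one mark and not in the other does not show that the marks differed.

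**Figure D5:**
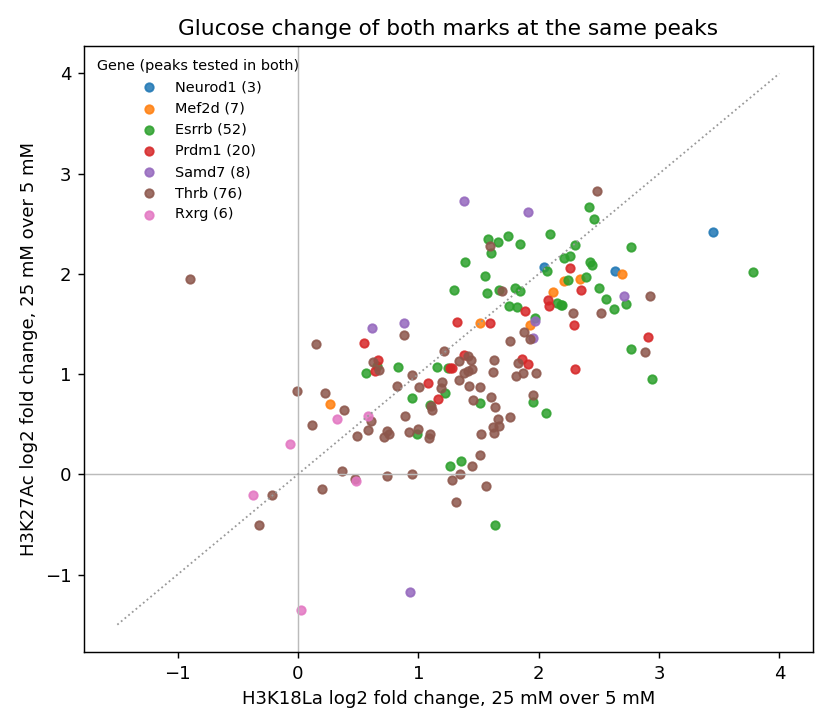
Log2 fold change, 25 mM over 5 mM glucose, of H3K27Ac against H3K18La at the 172 member peaks tested in both marks, coloured by gene; the dotted line marks equal change. Esrrb peaks gather near the line at high values, and many Thrb peaks lie below it, with larger changes in H3K18La.

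Within each library, promoter peaks of the members were set against their other peaks. The mean log2(RPKM + 0.5) of the 13 promoter peaks exceeded that of the other 198 in each group. For H3K18La the excess was 0.27 ± 0.21 under low and 0.31 ± 0.20 under high glucose (SD, n = 3 each), which differ by 0.04 (exact permutation p = 0.8). For H3K27Ac it was 0.52 ± 0.10 and 0.72 ± 0.36 (SD, n = 2 each), which differ by 0.20 (exact permutation p = 0.667). Both changes were within the spread between libraries, and that of H3K18La turned negative (-0.068) with a pseudocount of 0.1.

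The genes with the most similar locus pattern over the 10 libraries were named by correlation of log2(RPKM + 0.5) among 9557 other genes with a mean of 10 or more reads per library in each mark. For Neurod1 these were Mpp4 and Smim13 (Pearson's r of 0.998 and 0.997), for Mef2d Zfp787 and Pde6g (0.998 and 0.997), for Esrrb Casz1 and Mrps27 (0.998 and 0.997), and for Prdm1 A830009L08Rik and Gm47300 (0.997 each). Samd7 was closest to Cux2 and 1700096J18Rik (0.996 and 0.993) and Thrb to B230220B15Rik and Gemin6-ps (0.996 and 0.995). The libraries fall into 4 groups, so high values are common, and the median r with all other genes was 0.87 for Neurod1 and 0.74 for Samd7. Between members, Neurod1 and Mef2d were the closest pair (0.98), and Rxrg correlated with the others at 0.12 (Mef2d) to 0.63 (Thrb). Among the 7 members Rxrg had the lowest median r with all other genes, 0.36, and its closest genes were Gm48057 and 1700020G17Rik at 0.982 and 0.977.

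Other regulators of photoreceptors and relatives of the members were counted beside the 84.2% (H3K18La) and 62.1% (H3K27Ac) of all loci that rose. Of 15 such genes, 12 were tested in H3K18La and 11 rose, and 14 were tested in H3K27Ac and 14 rose, with median log2 fold changes of 1.63 and 1.66. Nrl, the rod determination factor, had the highest H3K18La change at 2.60 (SE 0.31), from 1.23 ± 0.545 to 10.2 ± 4.42 RPKM (SD, n = 3), and Lhx4, a LIM homeodomain factor, the lowest at 0.48. Crx had the highest H3K27Ac change at 2.44 (SE 0.51), and Onecut2 the lowest at 0.65. Of 26 paralogues and partners of the members, 19 of 20 tested rose in H3K18La with a median of 1.2, and 16 of 23 rose and 1 fell in H3K27Ac with a median of 1.09. Prdm8, a relative of Prdm1, stood highest in both marks at 1.78 and 1.83, and Neurod6, a relative of Neurod1, was the one that fell in H3K27Ac, by 0.58 from 1.19 to 0.639 RPKM (adjusted p = 0.0313, limma).

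Markers of retinal cell types were read the same way, beside the same 84.2% and 62.1% of all loci, and most of their counts are too small to set apart from these shares. Nrl and Nr2e3 stood among both the regulators and the rod markers, and Otx2 among both the regulators and the bipolar markers. All 9 rod markers with a peak rose in both marks (medians of 1.77 and 1.69), and their summed locus signal went from 12.7 to 15.4 RPKM at 5 mM to 51.0 to 98.9 at 25 mM in H3K18La. Of the cone markers 7 of 8 tested rose in H3K18La and 8 of 10 in H3K27Ac (medians of 1.42 and 0.74), and their sums went from 13.6 to 14.7 RPKM to 44.4 to 53.9 in H3K18La. Bipolar markers rose in 3 of 4 and 6 of 6 tested, Müller glia markers in 3 of 4 and 3 of 7, amacrine markers in 1 of 1 and 1 of 2, and ganglion cell markers in 1 of 1 and 1 of 2. Pigment epithelium markers rose in 1 of 1 and 2 of 3 tested and microglia markers in 2 of 2 and 1 of 3, and neither of the 2 control genes with a peak, Myh6 and Ins2, had enough reads for a test. Rom1, Pcp2, Tfap2a, Nefl, Lrat and Aif1 had no peak assigned. The part of cell composition in the members' changes was not tested.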

How the data were processed

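The authors aligned paired-end CUT&Tag reads to GRCm38, called peaks with MACS, annotated them with ChIPseeker 1.34.1, counted reads over a single set of peaks and deposited RPKM values. By the study's description the set was merged from H3K18La peaks of developing retina, so regions marked by H3K27Ac alone may be missing. Tools and versions are from the submitters' processing notes. Printed sequences are from RefSeq GRCm38.p6. Promoter peaks lay -1000 to 500 bp from a start. In each library 100% of the RPKM values that the authors deposited came out as whole reads (within 0.05 reads), so reads were recovered. Whether normalization factors enter the denominators is unknown. Fragments were counted without molecular identifiers, so floors cover counting error only. Of 32058 transcripts, 99.7% had the coordinates of GENCODE M21. A deposited table of the authors' H3K18La fold changes and p-values was not used.

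Tests used limma 3.58.1 (R 4.3.3) with an intensity trend on log2(RPKM + 0.5), each mark alone and a glucose by mark interaction over all libraries, with Benjamini-Hochberg adjustment over all peaks with a mean of at least 1 RPKM or all loci with a mean of at least 10 reads. A locus is the sum over a gene's peaks, per length. The linear model took the place of a count model because the unit was RPKM, and voom on the recovered reads was an alternative. Members, lists and alternatives were chosen with earlier results of these data known. For each member the promoter and the other peak with the highest mean over 10 libraries were named, with the largest rise per mark (no member peak fell past the threshold), the 2 genes of most similar pattern and the extremes of the related lists. The fits were tested on simulated data, where the interaction over peaks called none of the changes, so its count says little. Alternatives were pseudocounts of 0.1 and 1, minimums, scalings, voom, peaks within 100 kb, promoter or non-promoter peaks alone, a replicate block and leaving out each library.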

Additional observations from a re-analysis of the deposited data

How the results depend on the processing

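Counts of members called in H3K18La stayed within 1.5 times of 114 peaks under the pseudocounts, minimums and voom (91 to 125) and with each library left out (89 to 115), and 6 loci passed in each of these. With libraries scaled to the reads in peaks 0 peaks and 0 loci passed in either mark, and centring on the median gave 12 H3K18La peaks, 18 H3K27Ac peaks and 3 H3K27Ac loci. Without a minimum 0 H3K27Ac peaks and 0 H3K27Ac loci passed (96 and 6 at an unadjusted p under 0.05, limma). H3K27Ac loci that passed were 5 of 7 with a pseudocount of 0.1 (61.4% of all) and 5 of 7 with non-promoter peaks alone (45.5% of all). H3K27Ac calls ranged from 0 to 123 peaks and from 0 to 6 loci when 1 library was left out, the lone library then being assumed to vary like the others. Calls over all peaks and all loci followed the same order over the left-out H3K27Ac libraries, so these ranges are not particular to the members. In these fits the median H3K27Ac log2 fold change was 0.76 to 1.37 over member peaks, beside 0.62 to 1.05 over all peaks tested. Over loci it was 1.30 to 2.00 for the members and 0.75 to 1.18 for all tested. Deviations of same-numbered libraries from their group means correlated at 0.008 to 0.031 over peaks. This cannot decide whether the numbers pair libraries, because a shift of a whole library drops out of such a correlation. The replicate block gave 111 H3K18La peaks (36.5% of all passed), 42 H3K27Ac peaks (10.9% of all) and 1 H3K27Ac locus (5.51% of all). It left the 6 H3K18La loci (83.5% of all) and the 0 interaction peaks. The interaction count was 0 in each alternative run.

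The promoter contrast of H3K18La became -0.068 with a pseudocount of 0.1 and -0.12 with weak peaks left out, and ranged from -0.074 to 0.15 over left-out libraries. That of H3K27Ac ranged from -0.053 to 0.46. Scaled to reads in peaks, the strongest promoter peaks of Prdm1 (-0.017, H3K18La) and Rxrg (-0.41 and -0.34) and the loci of Rxrg (-0.72 and -0.77) and Thrb (-0.26, H3K27Ac) changed direction. Centred on the median the Rxrg peak (-0.33 and -0.10), the Rxrg locus (-0.79 and -0.98) and the Thrb locus (-0.14, H3K27Ac) did so, and the Rxrg locus in H3K27Ac was -0.066 without replicate 1 at 5 mM. The causes were not tested. Few reads per peak limit the weak regions, above all Rxrg and the H3K18La libraries at 5 mM.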
